A study of Mus musculus with 2 samples.

Results

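The genes described here are 9 genes of pigment cells (Dct, Pmel, Mlana, Tyr, Tyrp1, Mitf, Sox10, Slc45a2 and Gpr143), measured by RNA sequencing in the mitral valve of the mouse. They were taken by symbol from a table of 33640 genes, and all 9 were in it. Their values in these same libraries were known when they were chosen, so their levels and differences are given as a description, with no test. The tissue came from mice of 5 months, either wild type or with 1 copy of the C1039G missense allele of Fbn1 (Fbn1 C1039G heterozygous, called mutant below), the gene of the microfibril protein fibrillin-1 and the one mutated in Marfan syndrome. Valves of 8 hearts per genotype, from males and females, were pooled into 1 RNA sample, so each genotype is 1 library with no replicate and no error on any value. Neither the strain nor the coat colour of the mice is given in the labels.

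Melanocytes arise from the neural crest and are best known from skin and hair follicles, but a small population lives in the mouse heart, including the valves. In the pigment cell, the transcription factors SOX10 and MITF switch on the genes of the melanosome, the organelle in which melanin is made. PMEL forms the fibrils on which melanin is laid down, tyrosinase (Tyr) carries out the first and rate-limiting step of its synthesis, and the related enzymes DCT and TYRP1 act on later intermediates. MITF binds a short sequence, the M-box, in the promoters of the tyrosinase family.

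The promoters of that enzyme family are shown first because all 3 carry the same motif. Of the 9 genes, 4 had an entry in a RefSeq promoter table (build GRCm38.p6, which is mm10), namely Dct, Tyr, Tyrp1 and, with 3 separate starts, Mitf. The windows searched were the 250 bases before each annotated start, on both strands. The 27-base stretches below are centred on the 7-letter M-box core TCATGTG, in capitals, and read 5′ to 3′ along the gene. They lie at chr14:118052381-118052407 (minus strand) for Dct, chr7:87493518-87493544 (minus strand) for Tyr and chr4:80834156-80834182 (plus strand) for Tyrp1.
Dct: gcacttagggTCATGTGctaacaaaga
Tyr: aaaaagttagTCATGTGctttgcagaa
Tyrp1: ggggagggagTCATGTGctgcctagta

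The core occurred in 3.25% of the 32851 upstream windows in the table, and the 6-letter E-box CATGTG contained in it in 12.3%. The 3 sites shared a longer stretch, GTCATGTGCT, which was found in 51 windows, or 0.155%. It is the longest stretch around the core that the 3 windows share, so it was taken from them and its sharing is a description. With 1 more letter in front (AGTCATGTGCT) the match was in 7 windows, among them those of Tyr and Tyrp1 but not that of Dct. The core began 22 bases before the annotated start of Tyr, 47 bases before that of Tyrp1 and 151 bases before that of Dct. In Tyrp1 the window shares 90 bases with an exon that GENCODE release M21 starts further upstream. Dct held another copy of the core on the opposite strand, starting 232 bases upstream, which is the first run of capitals in its whole window (chr14:118052247-118052496, minus strand). The window of Tyr (chr7:87493513-87493762, minus strand) held 1 copy. In both windows the capitals mark the core, extended to GTCATGTGCT where it matches.
Dct: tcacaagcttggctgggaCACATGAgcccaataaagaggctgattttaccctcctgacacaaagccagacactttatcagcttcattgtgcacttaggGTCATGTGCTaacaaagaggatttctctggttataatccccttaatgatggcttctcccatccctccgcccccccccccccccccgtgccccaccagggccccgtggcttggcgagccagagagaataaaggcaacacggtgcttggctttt
Tyr: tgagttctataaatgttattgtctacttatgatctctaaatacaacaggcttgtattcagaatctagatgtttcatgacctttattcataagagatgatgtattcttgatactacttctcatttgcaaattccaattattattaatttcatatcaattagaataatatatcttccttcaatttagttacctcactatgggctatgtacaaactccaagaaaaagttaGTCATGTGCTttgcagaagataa

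No M-box core was found in the 3 windows of Mitf. The window of the start furthest along the gene (chr6:97991533-97991782, plus strand) held the letters TGACGTCA, the cAMP response element, 153 bases before the start and in capitals below. These letters were found in 1.55% of all windows. As background, Mitf has several first exons, and the melanocyte form is made from the promoter furthest downstream. The deposited values are sums over the whole gene, so the forms were not separated here.
Mitf: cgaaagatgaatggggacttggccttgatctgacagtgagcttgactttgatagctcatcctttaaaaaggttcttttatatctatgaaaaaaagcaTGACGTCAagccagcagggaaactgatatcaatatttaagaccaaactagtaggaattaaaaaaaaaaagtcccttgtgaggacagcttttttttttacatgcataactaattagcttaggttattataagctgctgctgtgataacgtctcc

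**Figure D1:**
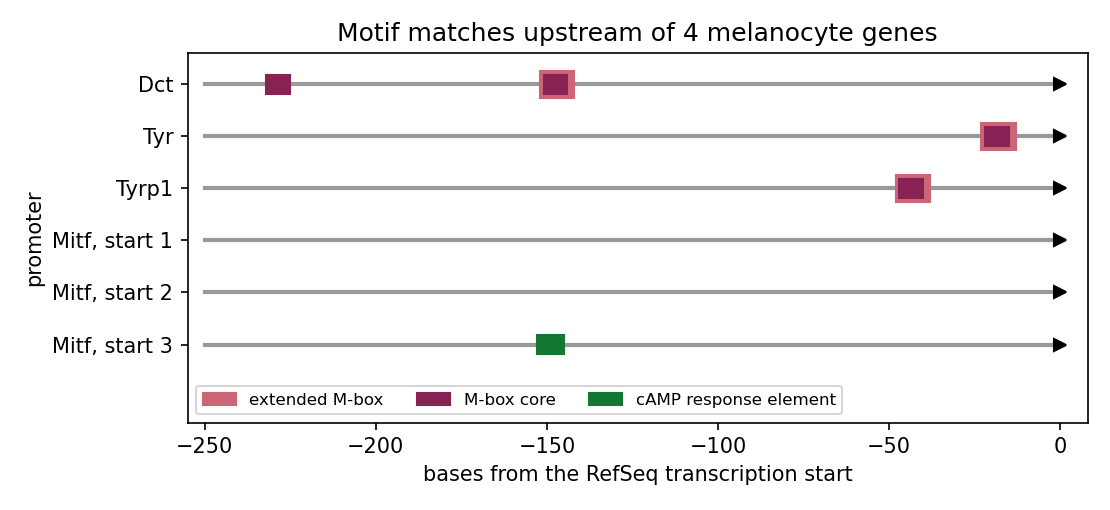
Motif matches in the 250 bases before the RefSeq start of Dct, Tyr, Tyrp1 and the 3 starts of Mitf; the x axis is the distance from the start in bases, arrowheads mark the start, and coloured boxes mark the M-box core, its longer form and the cAMP response element on either strand. The 3 enzyme promoters each hold the longer M-box, Dct holds another core further upstream, and the Mitf window of start 3 holds the cAMP response element.

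Values are TPM, the share of each transcript in its library after division by transcript length. This allows for length when genes are compared, but not for any effect of the amplification on single genes. The wild-type column summed to 999964 TPM and the mutant column to 999945 TPM, and the sequencing depth is unknown. The difference used below is the log2(TPM + 1) of the mutant less that of the wild type, and a gene counted as 2-fold different when this reached 1 in size and its mean TPM was at least 1. This scale understates differences of low genes. Over the 17004 genes that passed this filter the median difference was 0.14, so a gene at 0 lies slightly below the typical gene. Under quantile normalization that median was −0.01, and the split of 2-fold calls changed from 818 higher and 293 lower to 540 higher and 462 lower. Where 2 values are given for a gene, the first is wild type. Fbn1 was at 108 and 126 TPM. A missense allele need not alter its mRNA, so this does not check the labels.

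Pigment genes had less TPM in the mutant pool, while the transcription factors that drive them did not share this difference. Together the 9 genes took 148 TPM of the wild-type library and 88.6 TPM of the mutant library. Without Mitf and Sox10, which other cell types also express, the other 7 summed to 132 and 68.5 TPM, so that the mutant pool held 0.518 times the wild-type level. In bulk tissue, fewer melanocytes and less RNA per melanocyte cannot be told apart. Of the 9 genes, 8 passed the filter and Gpr143 did not. Among those 8, 7 were lower in the mutant and 1 was higher, with a median difference of −0.66. Over all genes tested, 35.1% had a lower value. Dct alone was at least 2-fold lower (1 of 8), where 1.72% of all genes tested were. The genes were chosen on this contrast, so nothing is read from these shares.

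**Figure D2:**
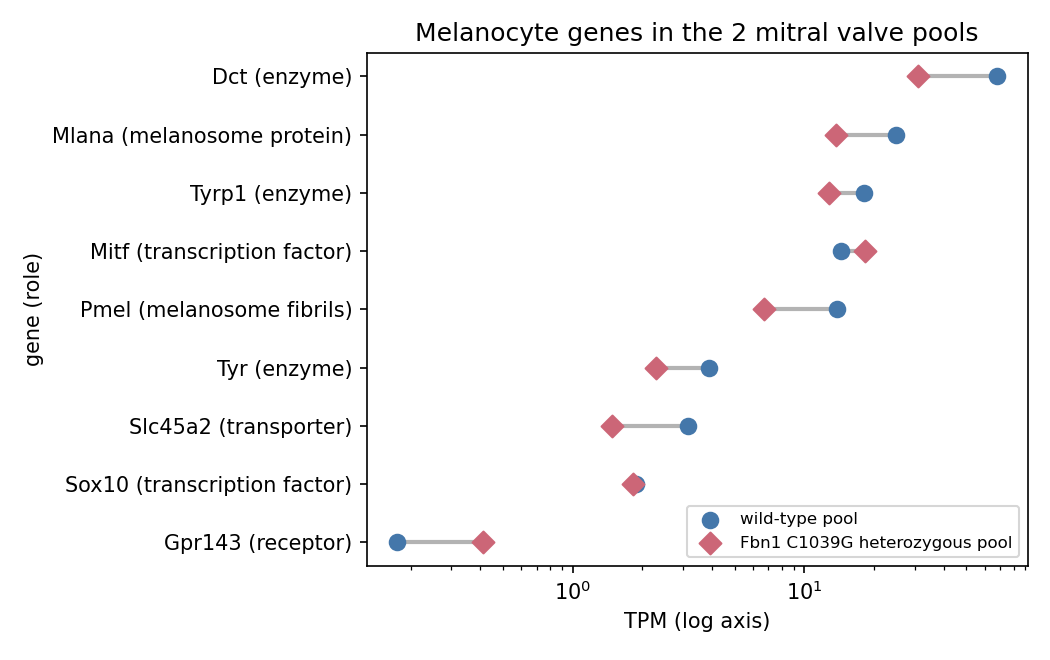
TPM of each of the 9 melanocyte genes (log axis) in the wild-type pool (circles) and the Fbn1 C1039G heterozygous pool (diamonds), 1 library each, with no error bars because there are no replicates. Dct, Mlana, Tyrp1, Pmel, Tyr and Slc45a2 lie to the left in the mutant pool, Mitf and Gpr143 to the right, and the symbols of Sox10 nearly coincide.

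Among the melanin-synthesis enzymes, Dct was by far the most abundant. Dct, dopachrome tautomerase, was at 68.2 TPM in wild-type valves and at 31.1 TPM in mutant valves. The mutant level was 0.456 times the wild-type level, a difference of −1.11. It was the highest of the 9 genes in both pools, above 93.7% (wild type) and 84.2% (mutant) of all genes in the table. Tyrp1, tyrosinase-related protein 1, was at 18.04 and 12.8 TPM, a difference of −0.47 and a ratio of 0.707. Tyr, tyrosinase itself, was at 3.89 and 2.29 TPM, a difference of −0.57 and a ratio of 0.588. All 3 enzymes were thus lower in the mutant, Dct to the greatest extent. The 3 enzymes summed to 90.1 and 46.1 TPM, of which Dct made up 75.7% in wild-type valves against 67.4% in mutant valves. Tyrp1 made up 20.01% and 27.7%, and Tyr 4.32% and 4.96%. These shares are taken within a library, so that scaling by the library total cancels. The shares differed between these 2 libraries, and with 1 library per genotype there is no error to set this against.

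The genes of melanosome proteins were lower by a similar factor. Pmel, which forms the melanosome fibrils, was at 13.8 and 6.69 TPM, a difference of −0.95 and a ratio of 0.483. It lay just outside the 2-fold limit, with Dct just inside. Mlana (MART-1), a melanosomal protein that associates with PMEL, was at 24.9 and 13.7 TPM, a difference of −0.81 and a ratio of 0.553. It was next to Dct in wild-type valves, and came behind both Dct and Mitf in mutant valves. Exons of Pmel share 34 of their 2292 bases with Cdk2 and 105 with Dgka, both on the opposite strand, and the counting is not stated to use strand. Cdk2, a cell cycle kinase, was at 8.998 and 10.2 TPM and Dgka, a lipid kinase, at 26.8 and 33.0 TPM, so neither overlapping gene had less TPM in the mutant pool.

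The transporter and receptor genes were the least abundant of the pigment genes. Slc45a2, a melanosomal transporter whose loss causes oculocutaneous albinism, was at 3.14 and 1.48 TPM. The difference of −0.74 missed the 2-fold limit on this scale, although the ratio of the TPM values was 0.472. With a pseudocount of 0.1 in place of 1, Dct, Pmel and Slc45a2 were all at least 2-fold lower (3 of 8, where 2.73% of all genes tested were). Gpr143, a melanosomal G protein-coupled receptor mutated in ocular albinism, was at 0.175 and 0.411 TPM. It was lowest of the 9 in both pools and below the filter, with Sox10 (mean 1.86 TPM) just above it. At this abundance the difference cannot be placed against any error.

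Of the transcription factors, Mitf differed in direction from the 6 pigment genes that were lower, and Sox10 was nearly level. Gpr143 was also higher. In the range of 5 to 20 mean TPM, 67.5% of genes had a difference at or below that of Mitf. Mitf, the master regulator of the melanocyte lineage, was at 14.4 and 18.3 TPM, a difference of 0.33 in the other direction, and moved from rank 4 to rank 2 of the 9. Sox10, a neural crest factor that acts upstream of Mitf, was at 1.89 and 1.83 TPM, a difference of −0.03. That difference became −0.14 with median centring and −0.27 with quantile normalization. Per TPM of Mitf, Dct was at 4.74 (wild type) and 1.69 (mutant), Mlana at 1.73 and 0.750, Pmel at 0.962 and 0.365, and Tyrp1 at 1.25 and 0.696. Tyr was at 0.270 and 0.125, Slc45a2 at 0.218 and 0.0809, and Gpr143, in the other direction, at 0.0121 and 0.0224. Mitf was higher in the mutant, so dividing by it lowers the mutant values relative to the wild-type values. Both factors have other sources in a valve, since macrophages and mast cells express Mitf, and Schwann cells express Sox10.

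The spread of genes at like abundance gives the scale of these differences. Between 20 and 100 mean TPM, the central 95% of 5737 genes lay from −0.53 to 0.89, and Dct lay outside this range. At least 2-fold lower were 0.383% of genes there, against 1.32% of those from 5 to 20 TPM and 4.29% of those from 1 to 5 TPM. Between 5 and 20 TPM, the central 95% of 5453 genes ran from −0.76 to 1.27. Pmel and Mlana lay outside it, and Tyrp1 and Mitf inside. Between 1 and 5 TPM the same limits were −1.44 and 1.93 over 4424 genes, and Tyr, Slc45a2 and Sox10 all lay within them. The 3 genes outside these ranges were thus among the 5 with a mean above 5 TPM, where values vary less between the libraries. Because the genes were chosen with these differences known, their place outside a range is a description only. Each range is a spread over genes and not an error on any gene.

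**Figure D3:**
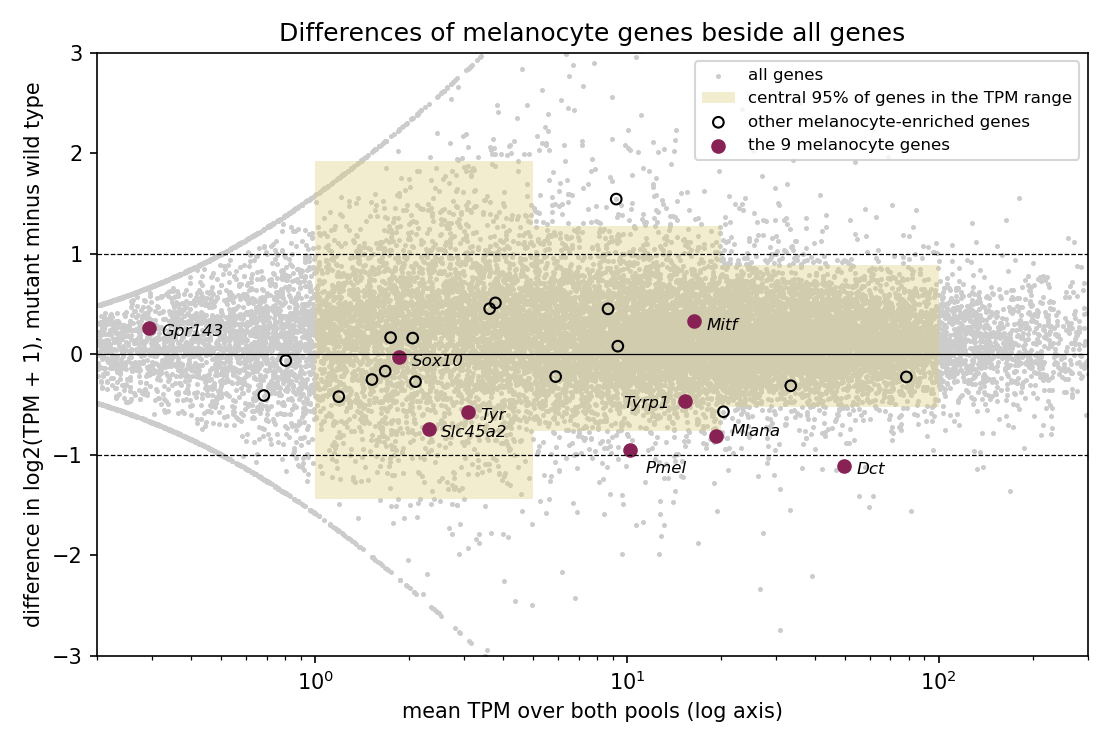
Mutant less wild-type log2(TPM + 1) against mean TPM over both pools (log axis), with all genes in grey, the 9 melanocyte genes filled and labelled, and the other melanocyte-enriched genes as open circles; shading spans the central 95% of genes in each TPM range and dashed lines mark 2-fold. Dct, Pmel and Mlana fall below the shading, and the remaining labelled genes with a mean of at least 1 TPM fall within it.

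Other genes of the pigment lineage did not share the difference to the same extent. A list of 18 further melanocyte-enriched genes, of which 15 passed the filter, had 8 lower and 7 higher, with a median of −0.17 against 0.14 over all genes tested. With median centring 9 were lower and 6 higher, and with quantile normalization 11 were lower and 4 higher. None of the 15 was at least 2-fold lower, where 1.72% of all genes tested were, so nothing is read from this count. Slc24a5, a cation exchanger of the melanosome with little known role outside pigment cells, was at 9.06 and 9.64 TPM. Oca2, a melanosomal chloride channel, was at 2.95 and 4.63 TPM, and Trpm1, a cation channel first described in melanocytes, at 6.44 and 5.38 TPM. These 3 markers therefore did not have the roughly halved level of Dct, Pmel and Slc45a2. The more abundant but less specific Gpnmb, a PMEL relative also made by macrophages, was at 85.0 and 72.6 TPM. The protease gene Bace2, which processes PMEL, was at 37.3 and 29.8 TPM. Ednrb, the endothelin receptor needed by melanoblasts and also present on vascular and other cells, was at 24.6 and 16.2 TPM.

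The receptor gene Kit, at 4.23 and 14.3 TPM, stood past 2-fold in the higher direction (a difference of 1.55, where 4.81% of all genes tested were at least 2-fold higher). Kit is the receptor for stem cell factor on melanoblasts and on mast cells. All 10 measured genes of a mast cell list, which holds Kit itself, were higher in the mutant, with a median of 0.38. Over all genes tested the median was 0.14, and 35.1% were lower. Among the 10 were also Mcpt4 (32.02 and 37.3 TPM) and Gata2 (19.8 and 21.2 TPM). With median centring 9 of the 10 were higher, and with quantile normalization 8. The part of mast cells in the values of Kit and Mitf was not tested.

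The core of the M-box was also found upstream of 4 of the 14 further melanocyte-enriched genes in the promoter table, Slc24a5, Trpm1, Mc1r and Tspan10, and of 1 of 27 genes of melanosome biogenesis and transport, Hps1. Mc1r, the melanocortin receptor, was at 0.844 and 0.767 TPM, and Tspan10, a tetraspanin of pigment cells, at 0.923 and 0.447 TPM, both below the filter. Hps1, a subunit of the BLOC-3 complex of melanosome biogenesis, was at 4.09 and 6.65 TPM, a difference of 0.59. Among the genes with the core, differences thus lay on both sides of 0. Slc24a5 had a difference of 0.08, which became −0.03 with median centring and −0.08 with quantile normalization. A match is a description of the letters in this window and not of binding.

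Genes of melanosome biogenesis and transport, which many cell types use for other lysosome-related organelles, lay near the typical gene. Of 29 measured, 9 were lower and 20 higher, with a median of 0.10. None was past 2-fold, where 1.72% of all genes tested were at least 2-fold lower and 4.81% at least 2-fold higher. With quantile normalization 17 were lower and 12 higher, with a median of −0.04. The tetraspanin gene Cd63, which takes part in PMEL sorting, was at 281 and 237 TPM, the BLOC-1 subunit gene Bloc1s1 at 199 and 151 TPM, and the adaptor subunit gene Ap1g1 at 117 and 145 TPM. The small GTPase gene Rab27a and its effector gene Mlph, which link melanosomes to the motor myosin Va, were at 12.0 and 12.8 TPM and at 13.0 and 12.9 TPM.

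The signals that melanoblasts and melanocytes receive were likewise spread around the typical gene. Of 15 measured, 5 were lower and 10 higher (7 and 8 with quantile normalization), with a median of 0.14 and Kit as the 1 gene past 2-fold. Kitl, the ligand of KIT, was at 34.1 and 48.1 TPM. Igf1 was at 682 and 406 TPM, the endothelin-converting enzyme gene Ece1 at 504 and 554 TPM and Fgf2 at 133 and 173 TPM. The endothelin gene Edn3, the ligand that acts on melanoblasts, was at 0.176 and 0.0314 TPM, which is too low to compare.

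The MITF paralogs and regulators of Mitf had a median of 0.14, with 3 of 13 measured lower and 10 higher, or 6 lower and 7 higher with quantile normalization. Of the paralogs, which bind the same E-box, Tfe3 was at 29.8 and 24.6 TPM, Tfeb at 34.4 and 48.5 TPM and Tfec at 2.35 and 4.13 TPM. Tfe3 and Tfeb were thus more abundant than Mitf in both pools. Zeb2, a zinc finger factor of the neural crest and many other cells, was at 175 and 221 TPM. Creb1, a factor that acts through the cAMP response element, was at 81.2 and 89.8 TPM and Bhlhe40 at 85.0 and 133 TPM. Pax3, which works with SOX10 on Mitf, was at 1.83 and 1.52 TPM.

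**Figure D4:**
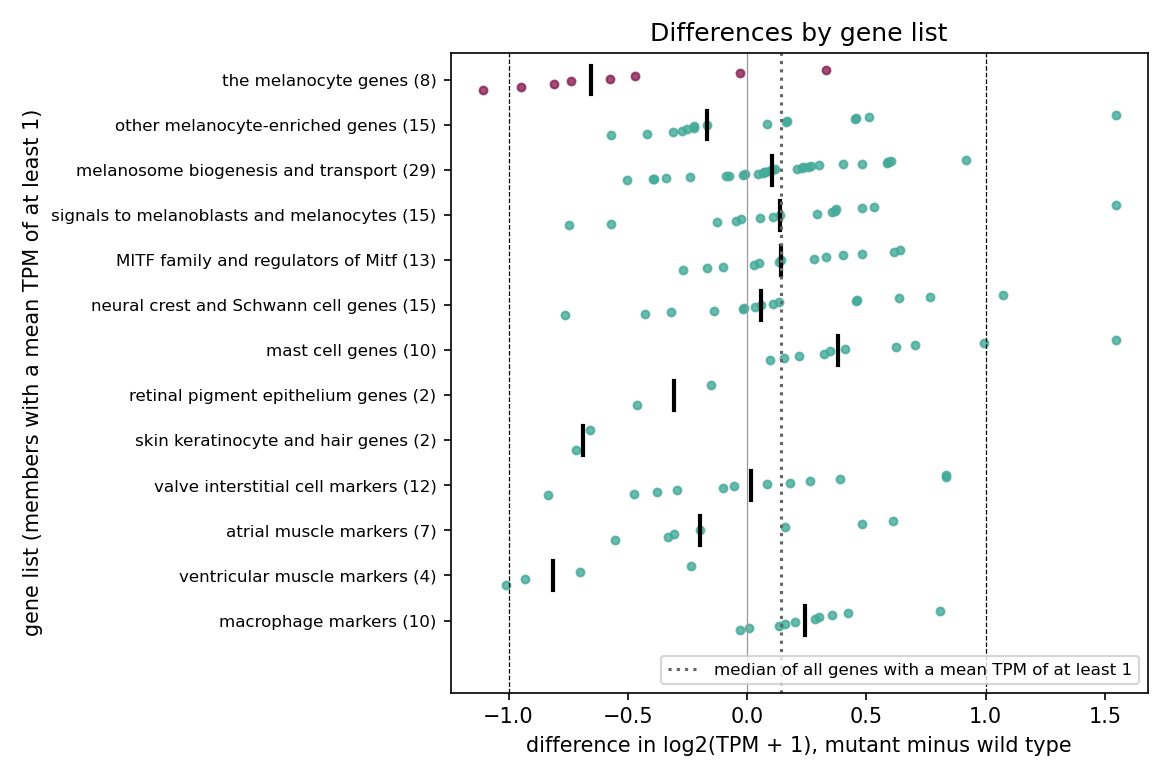
Mutant less wild-type log2(TPM + 1) for every gene with a mean of at least 1 TPM (points) in the melanocyte genes and 12 further lists, with the number of genes in brackets, the list median as a black bar and the median over all genes as a dotted line. The melanocyte genes have a median of −0.66, the ventricular muscle markers −0.82 and the further melanocyte-enriched genes −0.17.

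The label was set beside markers of cells that share these genes. All 10 defining melanocyte markers (7 of the 9 genes with Oca2, Slc24a5 and Trpm1) had a value above 0 in both pools, and summed to 151 and 88.1 TPM. Of these 10, 7 were lower and 3 higher in the mutant pool. Among Oca2, Slc24a5 and Trpm1, which are not of the 9 genes, only Trpm1 was lower. The other 7 were chosen with their values known. Of all 33640 genes, 12542 (wild type) and 12222 (mutant) were listed at 0, so a value above 0 is common and does not check the label. For the retinal pigment epithelium, the other pigmented tissue that expresses Tyr and Dct, the defining marker Rpe65 and the factor Otx2 were listed at 0 in both pools. Other genes of that list were present: Rdh5 was at 21.0 and 18.8 TPM, Best1 at 4.75 and 3.17 TPM and Lrat at 0.251 and 0.614 TPM. For skin, the basal keratin genes Krt5 and Krt14 were listed at 0 in both pools, but the 2 skin genes that passed the filter, Krt10 (2.18 and 0.935 TPM) and Trp63 (2.41 and 1.16 TPM), were lower in the mutant, with a median of −0.69. Their part in the pigment gene values was not tested. Valve interstitial cell markers, such as Dcn (11409 and 9304 TPM) and Vim (2797 and 3167 TPM), were among the abundant transcripts.

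Schwann cell genes, the other neural crest derivative that carries Sox10, were close to the typical gene. Of 15 measured, 6 were lower and 9 higher, with a median of 0.06 that became −0.05 with median centring and −0.08 with quantile normalization. The defining markers Mbp (5.06 and 5.64 TPM) and Cdh19 (12.7 and 13.0 TPM) were nearly level. S100b, also made by melanocytes, was at 53.8 and 39.7 TPM, Pmp22 at 985 and 1062 TPM and the sodium channel gene Scn7a at 34.1 and 47.2 TPM. Egr2, a factor of myelinating Schwann cells and of activated macrophages, was at 12.4 and 27.3 TPM, a difference of 1.07 that fell short of 2-fold with median centring (0.96) and quantile normalization (0.93). Measured genes of this list ran from a difference of −0.76 in the neurotrophin receptor gene Ngfr (8.73 and 4.73 TPM) to that of Egr2, so the list had no common direction.

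Markers of ventricular muscle also differed in the same direction as 6 of the 7 pigment genes. All 4 measured ventricular muscle markers were lower in the mutant, with a median of −0.82. Of these, Myl2 (407 and 201 TPM), the ventricular myosin light chain, was at least 2-fold lower. Over all genes tested, 35.1% were lower and 1.72% at least 2-fold lower. The 3 defining ones summed to 637 and 340 TPM, 0.533 times the wild-type level, close to the 0.518 of the 7 pigment genes. Of 7 atrial muscle markers 4 were lower and 3 higher (median −0.20), with Actc1 at 673 and 535 TPM. The 4 defining atrial markers, 1 lower and 3 higher, summed to 440 and 472 TPM, 1.07 times the wild-type level. Macrophage markers went the other way, with 9 of 10 higher (8 with median centring or with quantile normalization) and Lyz2 at 1288 and 1587 TPM. How much adjoining tissue each pool held was not measured, and its part in the pigment gene values was not tested.

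The pair of values of the median gene of the 9 (13.8 and 6.69 TPM) was most closely matched by Apbb1 (13.7 and 7.13 TPM), Gm12808 (13.1 and 7.05 TPM), Hist1h2bf (13.0 and 7.07 TPM), Coprs (12.9 and 7.02 TPM) and 2310039H08Rik (13.9 and 5.89 TPM). Likeness was the Euclidean distance in log2(TPM + 1) over the 2 libraries, which ran from 0.083 to 0.16. With 2 libraries many genes share such a pair, and 21 lay within a distance of 0.25.

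In the GENCODE M21 annotation (mm10), Dct lies on chromosome 14 (118012790 to 118052244, minus strand, ENSMUSG00000022129.4). Pmel lies on chromosome 10 (128704195 to 128720238, plus strand), Mlana on chromosome 19 (29697824 to 29708634, plus strand) and Tyr on chromosome 7 (87424771 to 87493512, minus strand). Tyrp1 lies on chromosome 4 (80834123 to 80851719, plus strand) and Mitf on chromosome 6 (97807052 to 98021349, plus strand). Sox10 (79154908 to 79165240, minus strand) and Slc45a2 (11000721 to 11029233, plus strand) are both on chromosome 15, and Gpr143 is on the X chromosome (152781921 to 152808646, plus strand). The genes with less TPM in the mutant pool are therefore spread over 6 chromosomes.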

How the data were processed

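Per the labels, RNA of 8 pooled mitral valves per genotype was amplified (Ovation RNAseq v2), and libraries from the Nextera XT kit were read on an Illumina HiSeq. Per the submitters' processing notes the authors used Trimmomatic, HISAT2, kallisto and mm10; for versions, roles and gene annotation the labels are silent. The deposited values are TPM per gene symbol, per the file header. Amplified reads without molecular identifiers are not independent molecules, and TPM retains no depth, so no interval is given.

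Differences of log2(TPM + 1) were computed with Python 3.11.15 and pandas 2.3.3, with a pseudocount of 1 and a mean TPM of at least 1. The calculation was run on simulated data with little noise, larger changes and genes more abundant than several of the 9. That run therefore does not test calls at the levels reported here. With 1 library per genotype no test was run. The 9 genes and the 12 further lists were chosen with earlier results of these data known. Named were all 9 genes, defining markers, Fbn1, the MITF paralogs, the 5 nearest genes and, from each list, the 3 most abundant genes and any past 2-fold. Some items this takes are not reported here. Kitl, Edn3, Pax3, Rab27a, Mlph, Mc1r, Tspan10, Hps1, Ngfr, Otx2, Cdk2 and Dgka were named after their values were seen. Promoter windows came from RefSeq, and gene positions from GENCODE M21. Alternatives were other pseudocounts, filters, scalings and subsets of the lists.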

Additional observations from a re-analysis of the deposited data

How the results depend on the processing

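The 6 pigment genes Dct, Pmel, Mlana, Tyr, Tyrp1 and Slc45a2 were lower, and Mitf and Gpr143 higher, in the mutant pool under each of the 5 alternative pseudocounts and scalings. Sox10 stayed below 0 in each, from −0.27 to −0.01. The count of genes at least 2-fold lower (1 as reported) was 3 with a pseudocount of 0.1 and 2 with median centring, with quantile normalization and with abundant and predicted genes left out, where 2.14%, 2.72% and 1.83% of all genes tested were. The median difference, over the 8 of the 9 genes that passed the filter unless stated, was −0.80 and −0.35 with pseudocounts of 0.1 and 5, −0.57 with no filter (all 9), −0.81 with the stricter filter of 5 mean TPM (5 genes), −0.77 with centring, −0.88 with quantile normalization, −0.76 without abundant and predicted genes and −0.77 without Mitf and Sox10 (6 genes). In the same order up to the scalings, the further melanocyte-enriched genes (−0.17) gave −0.23, −0.067, −0.19, −0.22, −0.28, −0.35 and −0.17, and −0.043 without Kit, Ednrb, Gpnmb, Irf4 and Syt4. The summed TPM of the 9 genes was 157 and 83.7 with quantile normalization, 219 and 126 without abundant and predicted genes, and 132 and 68.5 without Mitf and Sox10. Leaving out abundant genes raises every remaining TPM by construction, and the cause of other shifts was not tested. Over all genes tested, 293 were at least 2-fold lower, against 464 and 87 with pseudocounts of 0.1 and 5, 103 with the stricter filter and 462 with quantile normalization. No paired analysis was possible because each genotype has 1 library. No library could be left out for the same reason, and the depth behind low values such as those of Gpr143 is unknown.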
